A study of Mus musculus with 17 samples.

Results

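The vascular endothelial growth factor (VEGF) family of ligands and receptors was examined in the infarcted mouse heart. The 9 members were chosen by name, as the ligand genes Vegfa, Vegfb, Vegfc, Vegfd and Pgf, the receptor kinase genes Kdr, Flt1 and Flt4, and the coreceptor gene Nrp1. Each had a row of its own among the 31612 genes of the count table (overlapping groups set aside), and all 9 passed the filter on low counts together with 12301 features in all. Transcripts were counted by massive analysis of cDNA ends (MACE), in which a tag next to the poly(A) tail is sequenced and each molecule is counted once through its unique identifier. Infarct zone (IZ) tissue from 9 mice, taken 5 days after the left anterior descending coronary artery was permanently tied, was compared with left ventricle from 8 sham-operated mice at the same day. All animals were male wild-type C57BL/6 J mice aged 8 to 11 weeks, each library came from a separate mouse, and no vessel was reopened, so the samples show an infarct without reperfusion.

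VEGF ligands are secreted dimers that act mainly on endothelial cells. VEGF-A, the main driver of blood vessel growth and permeability, signals through the kinase KDR (also called VEGFR2), whereas FLT1 (VEGFR1) binds VEGF-A, VEGF-B and placental growth factor (PlGF) tightly and, in a soluble form, traps them. VEGF-C and VEGF-D act on FLT4 (VEGFR3), best known from lymphatic vessels, and NRP1 (neuropilin 1) holds several of these ligands in complexes with the kinases. In the heart, cardiomyocytes are a major source of VEGF-A and VEGF-B, and capillary endothelium carries the receptors.

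Total counts per library ran from 1237675 to 4738307, and levels are given as CPM, counts per 1000000 of the library size after scaling by the trimmed mean of M values (TMM). Because a transcript yields about 1 tag at its 3′ end whatever its length, CPM values of different genes were set side by side without division by length. Infarct zone replicate 1 stood apart from the other infarct libraries. Its 12 cardiomyocyte markers summed to 40460 CPM, against at most 9164 CPM in the other 8 infarct libraries and 96146 to 119350 CPM in sham, and mitochondrially encoded genes took 19.5% of its counts, against 4.22 to 6.78% in the other infarct libraries and 22.9 to 32.4% in sham. Results that rest on this library are given with and without it where its removal ended a call or moved the fold change of a named gene by over 1.5 times.

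Of the 9 members, 4 fell and 2 rose in the infarct zone, and the remaining 3 did not pass the test (edgeR quasi-likelihood test, Benjamini-Hochberg adjusted p under 0.05). The genes that fell were Vegfa, Vegfb, Kdr and Flt1, which together with Nrp1 were the most abundant members in sham. Vegfd and Pgf, which were scarce in sham, rose, while Vegfc, Flt4 and Nrp1 were not called. Among all 12301 features tested, 36.3% were called higher and 33.1% lower, so neither count of members by itself sets the family apart. In all 4 members that fell, every infarct library lay below every sham library, as was the case for 16.5% of all features. Vegfd was the member with every infarct library above every sham library, a pattern seen in 16.6% of all features. Leaving out infarct zone replicate 1 left 2 members called higher and 4 called lower.

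**Figure D1:**
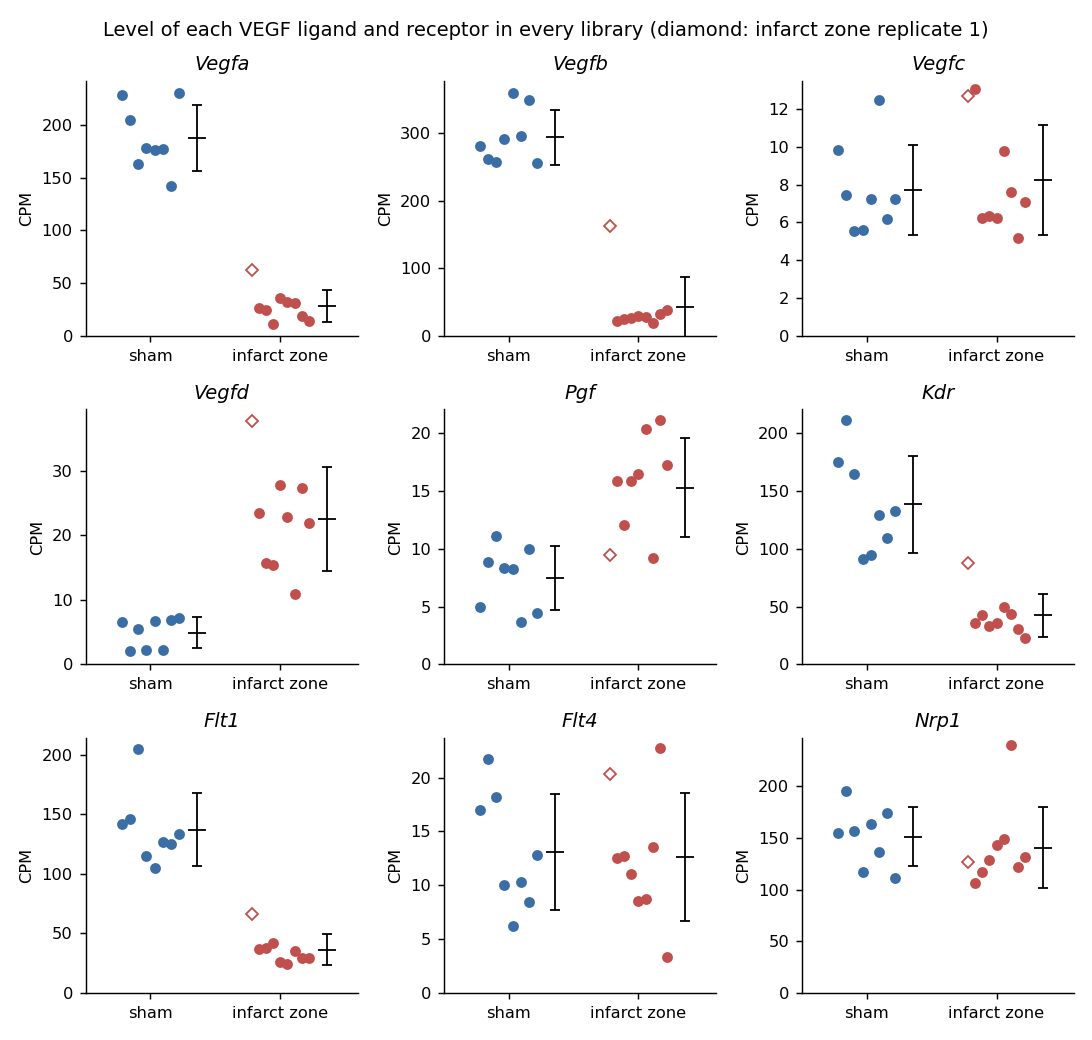
CPM of the 9 members in each library (y axes, linear and starting at 0), with sham in blue (8 mice), infarct zone in red (9 mice), and bars for the mean and SD. Vegfa, Vegfb, Kdr and Flt1 separate downward, Vegfd separates upward, and the open diamond marks infarct zone replicate 1, at 162 CPM for Vegfb against at most 37.8 CPM in the other infarct libraries.

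The order of levels changed between the groups. In sham it ran from Vegfb (293 CPM) through Vegfa (187 CPM), Nrp1 (151 CPM), Kdr (139 CPM) and Flt1 (137 CPM) to Flt4 (13.1 CPM), Vegfc (7.70 CPM), Pgf (7.45 CPM) and Vegfd (4.93 CPM). Vegfb was above Vegfa in 8 of 8 sham libraries and Flt1 above Flt4 in 8 of 8, whereas Nrp1 exceeded Kdr in 4 of 8, Kdr exceeded Flt1 in 3 of 8 and Vegfc exceeded Pgf in 3 of 8, so these neighbours could not be ordered. In the infarct zone Nrp1 came first (140 CPM), above Kdr in 9 of 9 libraries. Kdr (42.6 CPM), Vegfb (42.6 CPM), Flt1 (36.4 CPM) and Vegfa (28.5 CPM) followed, with each above the next in 5 to 7 of 9 libraries. Vegfd (22.6 CPM) exceeded Pgf (15.3 CPM) in 8 of 9 libraries, Pgf exceeded Flt4 (12.6 CPM) in 5 of 9, and Vegfc was last (8.25 CPM).

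Vegfa (chromosome 17, 46016993 to 46032369, minus strand, GRCm38) encodes the principal ligand of KDR and was 187 ± 31.2 CPM in the 8 sham libraries (mean ± SD) against 28.5 ± 15.1 CPM in the 9 infarct libraries. The sham libraries had a lowest, median and highest level of 142, 178 and 231 CPM, and the infarct libraries of 11.3, 26.6 and 62.3 CPM. The groups did not overlap, and the highest infarct value belonged to replicate 1. The level fell by 2.73 on the log2 scale (SE 0.24, 95% interval -3.22 to -2.24, edgeR adjusted p = 7.48e-10), which is 6.63-fold lower. Without infarct zone replicate 1 the infarct mean was 24.3 ± 8.75 CPM (n = 8) and the log2 fold change was -3.01. The annotation lists 8 coding transcripts of Vegfa with 4 different 3′ ends within 1865 bases, which the counts per gene pool, so splice forms were not resolved.

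Vegfb (chromosome 19, 6982473 to 6987651, minus strand) encodes a ligand of FLT1 that is abundant in heart muscle, and it was the highest member in sham at 293 ± 40.2 CPM. Sham libraries ranged from 255 to 359 CPM with a median of 286 CPM, and infarct libraries from 19.0 to 162 CPM with a median of 27.6 CPM. All infarct values were below all sham values, and 8 of the 9 lay close together, with replicate 1 far above them. The log2 fold change was -2.79 ± 0.34 (SE, adjusted p = 1.26e-07), or 6.92-fold lower, from an infarct mean of 42.6 ± 45.1 CPM (n = 9). Without replicate 1 the infarct mean was 27.6 ± 6.01 CPM and the log2 fold change -3.45. The spread within the infarct zone therefore came mainly from 1 library.

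Vegfd (chromosome X, 164373378 to 164402650, plus strand), a ligand of FLT4, went the other way. It was 4.93 ± 2.35 CPM in sham, where libraries held 3 to 18 counts, and 22.6 ± 8.03 CPM in the infarct zone, where they held 20 to 169 counts. Sham levels ran from 2.04 to 7.22 CPM with a median of 6.06 CPM, and infarct levels from 10.8 to 37.7 CPM with a median of 22.9 CPM. The groups did not overlap, and infarct zone replicate 1 was again the highest. The log2 fold change was 2.12 ± 0.27 (SE, adjusted p = 3.42e-07), which is 4.35-fold higher with a 95% interval of 2.94 to 6.45, and it was 1.96 without replicate 1.

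Pgf (chromosome 12, 85166635 to 85177790, minus strand) encodes PlGF, a ligand of FLT1 that is low in most healthy adult tissues. Its level was 7.45 ± 2.75 CPM in sham (3.68 to 11.1 CPM, median 8.32 CPM) and 15.3 ± 4.30 CPM in the infarct zone (9.22 to 21.2 CPM, median 15.9 CPM). Here 7 of 9 infarct libraries were above every sham library, and replicates 1 and 7 lay within the sham range. Pgf rose by 1.02 ± 0.22 on the log2 scale (SE, adjusted p = 0.000323), or 2.03-fold with a 95% interval of 1.47 to 2.80.

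Vegfc (chromosome 8, 54077606 to 54187096, plus strand), the lymphatic growth factor that shares FLT4 with VEGF-D, was 7.70 ± 2.38 CPM in sham (5.54 to 12.5 CPM, median 7.23 CPM) and 8.25 ± 2.92 CPM in the infarct zone (5.16 to 13.1 CPM, median 7.10 CPM). The ranges overlapped in 6 of 9 infarct libraries, and the log2 fold change was 0.14 ± 0.23 (SE, adjusted p = 0.608). Its 95% interval, -0.34 to 0.62, leaves room for a change of up to 1.54-fold in the upward direction. Libraries held 7 to 94 counts of Vegfc.

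The stretches of promoter sequence of the 4 ligands that changed are shown so that the letter content of the genes that fell can be set beside that of the genes that rose. Each is the 250 bases before the RefSeq start (GRCm38.p6), written 5′ to 3′ on the strand of the gene, with capitals for matches on either strand to 2 short motifs. The first is the GC box, spelled GGGCGG. The second is the TATA box, spelled TATAAA.
Vegfa, chr17:46032378-46032627, minus strand: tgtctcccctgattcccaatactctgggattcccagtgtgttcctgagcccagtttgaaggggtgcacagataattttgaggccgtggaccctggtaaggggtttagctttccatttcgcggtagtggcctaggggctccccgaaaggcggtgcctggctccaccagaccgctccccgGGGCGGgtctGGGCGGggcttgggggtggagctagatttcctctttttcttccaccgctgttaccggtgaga
Vegfb, chr19:6987652-6987901, minus strand: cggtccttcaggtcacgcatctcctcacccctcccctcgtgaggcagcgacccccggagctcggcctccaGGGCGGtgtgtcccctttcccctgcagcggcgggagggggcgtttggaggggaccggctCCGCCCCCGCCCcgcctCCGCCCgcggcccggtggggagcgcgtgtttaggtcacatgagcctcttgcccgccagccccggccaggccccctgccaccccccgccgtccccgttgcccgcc
Vegfd, chrX:164373272-164373521, plus strand: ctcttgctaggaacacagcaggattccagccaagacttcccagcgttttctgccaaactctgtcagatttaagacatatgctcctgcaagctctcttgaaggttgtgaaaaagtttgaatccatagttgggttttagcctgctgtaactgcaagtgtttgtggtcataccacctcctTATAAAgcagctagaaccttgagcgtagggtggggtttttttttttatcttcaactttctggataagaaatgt
Pgf, chr12:85177314-85177563, minus strand: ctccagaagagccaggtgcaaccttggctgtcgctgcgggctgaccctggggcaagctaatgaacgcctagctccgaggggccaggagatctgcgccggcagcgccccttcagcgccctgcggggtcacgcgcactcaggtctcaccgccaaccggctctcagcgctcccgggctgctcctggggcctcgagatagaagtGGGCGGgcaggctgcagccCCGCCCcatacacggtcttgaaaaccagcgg

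These motifs were counted in windows of 300 bases, from 250 before to 50 after the start. The Vegfa, Vegfb and Pgf windows were rich in G and C (62.0%, 75.3% and 66.0%, against a median of 52.7% over 32851 promoters) and held 2, 4 and 2 GC boxes, a motif found in 35.7% of all promoters of this length. The Vegfd window had 42.0% G and C, with 2 CpG dinucleotides, no GC box and 1 TATA box that begins at position -73. A TATA box was present in 13.6% of all promoters, and Flt1 had the only other one among the members, at -31. The outermost Vegfd transcript of the annotation starts inside the window shown. ACGTG, the core of the site bound by hypoxia-inducible factors, was searched on both strands and was found in 19.6% of all promoters. Among the members it occurred only in the window of a second, downstream Vegfa start (not shown). Vegfa and Pgf each had 2 windows and the other members 1. The G and C content and GC box counts above are for the windows shown, and the second windows held 1 GC box for Vegfa and 0 for Pgf. Sequence beyond these windows was not searched. A match describes the letters of the window and no binding was measured.

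The makeup of the ligand pool shifted. In sham, Vegfb took 58.5 ± 5.87% of the summed counts of the 5 ligands (SD, n = 8) and Vegfa 37.5 ± 6.03%, whereas Vegfc, Pgf and Vegfd took 1.54%, 1.51% and 0.976%. In the infarct zone, Vegfb took 32.0 ± 10.8% (SD, n = 9), Vegfa 24.9 ± 8.36%, Vegfd 20.2 ± 4.30%, Pgf 15.1 ± 5.29% and Vegfc 7.69 ± 2.67%. The share of Vegfd ran from 0.421 to 1.43% in sham and from 13.3 to 25.9% in the infarct zone. The pool itself was smaller, at 501 ± 34.6 CPM in sham against 117 ± 64.3 CPM in the infarct zone, with 284 CPM in infarct zone replicate 1 and at most 116 CPM in the others. Without that library the Vegfb share was 28.9 ± 5.80% (n = 8). Shares within a library do not depend on how libraries were scaled, but each is set in part by the fall of the other ligands, so the larger share of Vegfc stood beside an uncalled level.

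**Figure D2:**
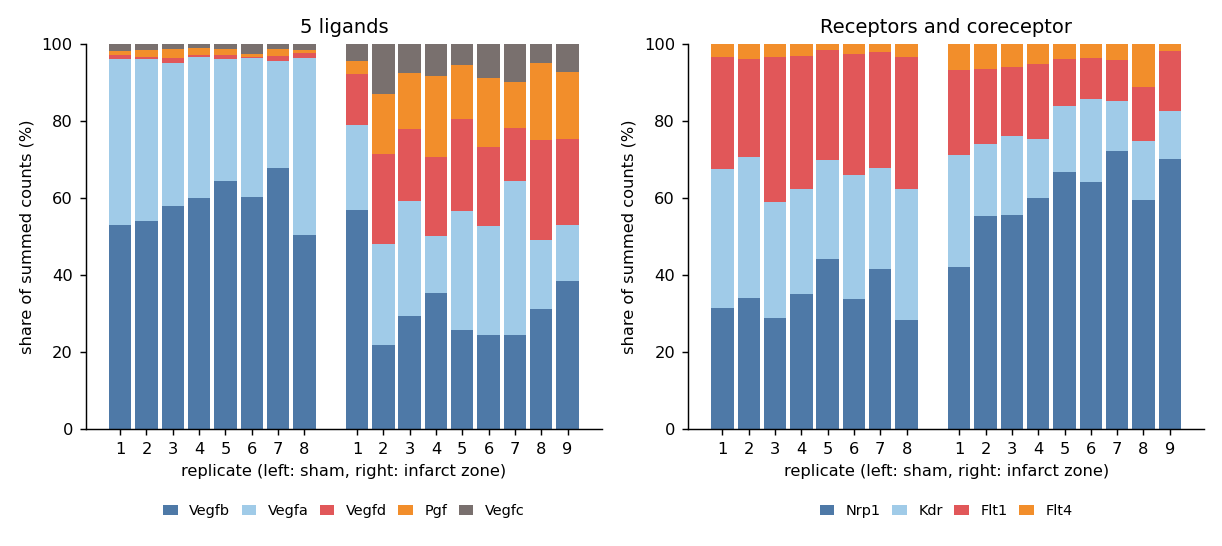
Share of each gene (y axis, %) in the summed counts of the 5 ligands (left panel) and of Kdr, Flt1, Flt4 and Nrp1 (right panel), with 1 bar for each library. Vegfb and Vegfa fill nearly the whole ligand bar in sham, Vegfd and Pgf take 20.2% and 15.1% on average in the infarct zone, and Nrp1 goes from 34.7% to 60.7% of the receptor bar.

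Ratios of ligands within a library showed the same contrasts and were tested by exact two-sided permutation over all 24310 assignments of the libraries, with Benjamini-Hochberg adjustment over 12 ratios. The log2 ratio of Pgf to Vegfa was -4.66 ± 0.73 in sham and -0.78 ± 1.01 in the infarct zone, a difference of 3.88 (adjusted p = 0.000165). That of Vegfc to Vegfa differed by 2.92 and that of Vegfd to Vegfc by 2.11, each higher in 9 of 9 infarct libraries than in every sham library and each with an adjusted p = 0.000165, the smallest that this family gave. The log2 ratio of Vegfb to Vegfa was 0.65 ± 0.38 in sham and 0.37 ± 0.81 in the infarct zone. A change of this ratio between the groups was not detected (difference -0.28, adjusted p = 0.385, exact permutation test).

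Both main receptor kinases of blood endothelium fell. Kdr (chromosome 5, 75932827 to 75978458, minus strand), which encodes the main signalling receptor for VEGF-A, was 139 ± 42.2 CPM in sham against 42.6 ± 18.6 CPM in the infarct zone. Sham libraries ranged from 90.9 to 211 CPM with a median of 131 CPM, and infarct libraries from 23.0 to 87.3 CPM with a median of 36.2 CPM. The highest infarct library, replicate 1, came close to the lowest sham library, but the groups did not overlap. The log2 fold change was -1.70 ± 0.22 (SE, adjusted p = 2.59e-07), which is 3.25-fold lower, and -1.93 without replicate 1.

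Flt1 (chromosome 5, 147561604 to 147726011, minus strand), the gene of the high-affinity receptor for VEGF-A, VEGF-B and PlGF, was 137 ± 30.6 CPM in sham (105 to 205 CPM, median 130 CPM) and 36.4 ± 12.8 CPM in the infarct zone (24.3 to 66.7 CPM, median 35.2 CPM). The groups were apart in every library. The log2 fold change was -1.90 ± 0.17 (SE, adjusted p = 1.46e-09), or 3.74-fold lower, and -2.08 without replicate 1. The annotation gives Flt1 2 coding 3′ ends that lie 73555 bases apart, the nearer of which belongs to a shorter, soluble type of transcript, and the deposited counts pool them.

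Flt4 (chromosome 11, 49609263 to 49652739, plus strand), the receptor gene for VEGF-C and VEGF-D, was low in both groups, with 13.1 ± 5.37 CPM in sham (6.21 to 21.7 CPM, median 11.5 CPM) and 12.6 ± 5.94 CPM in the infarct zone (3.38 to 22.7 CPM, median 12.5 CPM). The infarct libraries spread over the whole sham range and past it at both ends. The log2 fold change was -0.04 ± 0.29 (SE, adjusted p = 0.912) with a 95% interval of -0.63 to 0.56, which spans 0.644 to 1.47 times the sham level. Its sign turned with the setting, as it lay between -0.18 and 0.11 when single libraries were left out.

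Nrp1 (chromosome 8, 128358604 to 128503363, plus strand), which besides its part in VEGF signalling is a receptor for class 3 semaphorins and is made by many cell types, was 151 ± 28.4 CPM in sham (111 to 195 CPM, median 156 CPM) and 140 ± 39.3 CPM in the infarct zone (106 to 240 CPM, median 128 CPM). Replicate 7 alone lay above the sham range. The log2 fold change was -0.11 ± 0.15 (SE, adjusted p = 0.533), and its 95% interval of -0.42 to 0.20 spans 0.748 to 1.15 times the sham level. The microRNA gene Mir1903 lies within Nrp1 on the same strand, and no other member overlaps another annotated gene.

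**Figure D3:**
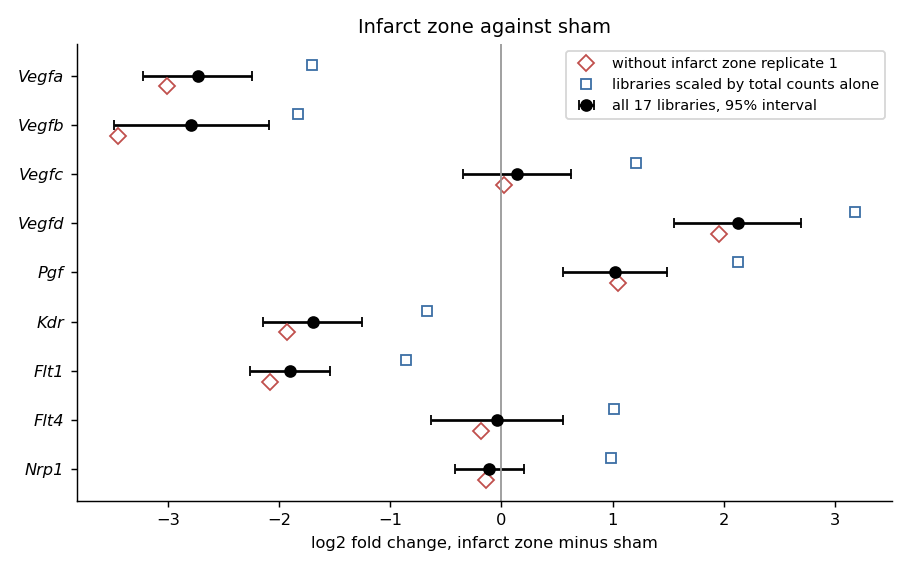
Log2 fold change of each member (x axis, infarct zone minus sham), with filled circles and 95% intervals for all 17 libraries, diamonds without infarct zone replicate 1, and squares after scaling by total counts alone. Intervals of Vegfc, Flt4 and Nrp1 cross 0, and the squares lie to the right of the circles by about the shift of the median gene, 1.09.

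The 6 called members kept their direction and call under every scaling tried, whereas the other 3 did not stay uncalled under all of them. With libraries scaled by total counts alone, the median log2 fold change of all genes was higher by 1.09, and calls were split into 9203 higher and 1524 lower in place of 4470 and 4074. Under that scaling Vegfc, Flt4 and Nrp1 had log2 fold changes of 1.21, 1.01 and 0.98 and were called higher (adjusted p = 3.70e-05, 0.00178 and 4.73e-06). Relative to the median gene they were at 0.07, -0.13 and -0.16. The direction of Flt4 and Nrp1 thus depends on whether it is read against the total count or against the typical gene. The value of Vegfc was positive in both readings, and only its call changed. Kdr and Flt1 remained called lower at -0.67 and -0.86.

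The receptor pool changed in proportion accordingly. Kdr, Flt1 and Nrp1 took 31.0 ± 4.34%, 31.3 ± 3.95% and 34.7 ± 5.67% of the summed counts of the 4 genes in sham, and 18.1 ± 5.15%, 15.8 ± 4.21% and 60.7 ± 9.16% in the infarct zone. Flt4 took 2.90 ± 0.74% and 5.47 ± 2.63%. The 3 kinases together had 289 ± 70.6 CPM in sham against 91.6 ± 33.1 CPM in the infarct zone. The log2 ratio of Flt1 to Kdr was 0.02 ± 0.30 in sham and -0.19 ± 0.43 in the infarct zone (difference -0.21, adjusted p = 0.295, exact permutation test). The ratio of Flt4 to Kdr was higher by 1.62 in the infarct zone (adjusted p = 0.000165, exact permutation test), with every infarct library above every sham library.

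To set the receptors against the vessels that carry them, their levels were divided by the mean level of 20 blood endothelial markers. In bulk tissue, fewer cells of a type and less RNA per cell cannot be told apart. Among all features, 33.1% were called lower and 36.3% higher. Of these 20 markers, 9 fell in the infarct zone and none rose (edgeR, 0 also at an unadjusted p under 0.05 and 0 by DESeq2), with a median log2 fold change of -0.33 against 0.05 for all features, and their summed level was 1144 to 1845 CPM in sham and 822 to 1253 CPM in the infarct zone. Pecam1 and Cdh5, adhesion molecules of all endothelium, had values of -0.16 and -0.21 and were not called, and Erg, an endothelial transcription factor, had the highest value at 0.11 (adjusted p = 0.568). Rgcc, a capillary gene, fell most (-2.52 ± 0.28 SE, adjusted p = 3.31e-08), from 50.7 to 8.36 CPM. Under total count scaling 15 of these markers were called higher and 1 lower, while ratios within a library do not depend on the scaling of libraries.

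Relative to the mean of these markers, Kdr and Flt1 were lower in the infarct zone. The log2 ratio of Kdr to the marker mean was 1.35 ± 0.23 in sham and 0.15 ± 0.34 in the infarct zone, a difference of -1.19, and that of Flt1 was 1.36 ± 0.18 and -0.04 ± 0.28, a difference of -1.40. Both had an adjusted p = 0.000165 (exact permutation test), and in both every infarct library was below every sham library. Flt4 had a difference of 0.43 (adjusted p = 0.149). Nrp1 was higher relative to the markers by 0.42 (adjusted p = 0.0326), with 4 of 9 infarct libraries above every sham library. That call was lost when libraries were thinned to equal totals (0.34, adjusted p = 0.0574) and when medians were compared (0.39, adjusted p = 0.0619). Among the markers, Rgcc (log2 fold change -2.52) fell more than Kdr (-1.70) and Flt1 (-1.90). The lower ratios of Kdr and Flt1 therefore hold for the marker mean and not for each marker. The ratio measures the level per unit of the chosen markers, and the cells that held the RNA were not resolved.

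**Figure D4:**
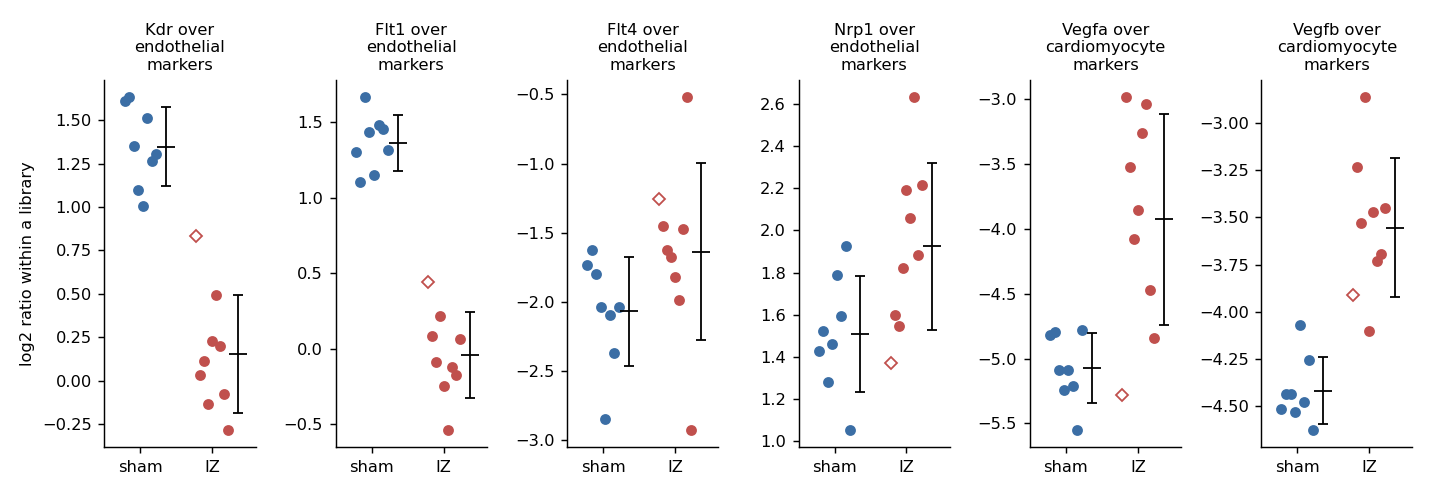
Log2 ratio (y axes, each on its own scale) of 4 receptor genes to the mean of 20 blood endothelial markers and of 2 ligand genes to the mean of 12 cardiomyocyte markers, with sham in blue, infarct zone (IZ) in red, infarct zone replicate 1 as an open diamond, and bars for the mean and SD. Kdr and Flt1 lie lower in all 9 infarct libraries than in any sham library, and Vegfb lies higher in 8 of 9.

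The fall of Vegfa and Vegfb was accompanied by a loss of cardiomyocyte transcripts. Over all features 33.1% were called lower. All 12 cardiomyocyte markers fell, from a log2 fold change of -2.12 for Actc1 (cardiac actin) to -4.19 for Tnni3 (cardiac troponin I), with a median of -3.71, and no marker was at 0 in all libraries. The value of Tnni3 was -5.00 without infarct zone replicate 1. The part of this loss in the lower ligand levels was not tested. Relative to the mean of these 12 markers, both ligands were higher in the infarct zone. Vegfa was higher by 1.15 on the log2 scale (-5.07 ± 0.27 in sham and -3.93 ± 0.81 in the infarct zone, adjusted p = 0.00444, exact permutation test). Vegfb was higher by 0.87 (-4.42 ± 0.18 and -3.55 ± 0.37, adjusted p = 0.000212, exact permutation test). For Vegfa 7 of 9 and for Vegfb 8 of 9 infarct libraries were above every sham library, and replicate 1 was the lowest infarct library for Vegfa, within the sham range at -5.28. Without it the differences were 1.32 and 0.91. Of the 12 markers, Actc1 and Tnnt2 (-2.20) fell less than either ligand, whose log2 fold changes were -2.73 and -2.79. The direction therefore holds for the mean of the markers and not for each of them. The cells that held the ligand RNA were not resolved.

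Within each group, 10 relations between members and marker means were examined, 20 in all, with exact two-sided permutation p values adjusted over the 20. Among the 9 infarct libraries, Vegfb followed the cardiomyocyte markers (Pearson r = 0.951, adjusted p = 0.0205, Spearman rho = 0.817, adjusted p = 0.0718). Without the 2 libraries farthest from the median r was 0.735 (n = 7, unadjusted exact p = 0.0599), and without replicate 1 it was 0.694 (adjusted exact p = 0.186), so the relation no longer passed and rests on those libraries. Vegfa gave r = 0.670 (adjusted p = 0.101, rho = 0.550 with adjusted p = 0.241), which became -0.05 without the 2 farthest libraries. Vegfd gave r = 0.734 (adjusted p = 0.0592, rho = 0.783 with adjusted p = 0.0861), or 0.499 without those libraries. Among the 8 sham libraries the same relations gave r = -0.08, 0.401 and -0.02 for Vegfa, Vegfb and Vegfd (adjusted exact p = 0.921, 0.370 and 0.947), with rho = -0.02, 0.452 and 0.10 (adjusted exact p = 0.977, 0.382 and 0.884).

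Kdr followed the endothelial markers both in the infarct zone (r = 0.906, adjusted p = 0.0205, rho = 0.733 with adjusted p = 0.0889, exact permutation) and in sham (r = 0.911, adjusted p = 0.0205, rho = 0.881 with adjusted p = 0.0718, exact permutation). Without the 2 farthest libraries r was 0.530 and 0.842, and without infarct zone replicate 1 the former was 0.779 (adjusted exact p = 0.116), which no longer passed. Flt1 gave r = 0.812 in the infarct zone and 0.777 in sham (both with adjusted exact p = 0.0376, rho = 0.683 with adjusted p = 0.112 and rho = 0.810 with adjusted p = 0.0871), or 0.603 and 0.699 without the 2 farthest libraries, and 0.545 in the infarct zone without replicate 1 (adjusted exact p = 0.332). Flt4 followed the markers in sham (r = 0.872, adjusted exact p = 0.0345, rho = 0.786 with adjusted p = 0.0889, 0.697 without the 2 farthest) and gave r = 0.670 in the infarct zone (adjusted exact p = 0.101, rho = 0.583 with adjusted p = 0.216). Nrp1 gave r = 0.05 in the infarct zone and 0.460 in sham (adjusted exact p = 0.921 and 0.333, rho = -0.12 and 0.452 with adjusted p = 0.862 and 0.382), and whether it differs from the kinases in this was not tested. Pgf and Vegfc were set against macrophage markers, and neither relation passed in either group, with r = 0.486 and -0.73 in the infarct zone (adjusted exact p = 0.286 and 0.0507, rho = 0.333 and -0.68 with adjusted p = 0.514 and 0.112) and r = 0.491 and -0.45 in sham (adjusted exact p = 0.314 and 0.334, rho = 0.524 and -0.29 with adjusted p = 0.328 and 0.626). Kdr and Flt1 gave r = 0.619 with each other in the infarct zone and 0.715 in sham (adjusted exact p = 0.147 and 0.0781, rho = 0.150 and 0.905 with adjusted p = 0.833 and 0.0718). No Spearman rho passed after adjustment.

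Marker transcripts of other cell types also differed between the groups. The counts below stand beside 36.3% of all features called higher and 33.1% called lower. Of 10 fibroblast markers 8 rose, with Col1a1 (collagen I) highest at 5641 CPM from 352 CPM (adjusted p = 2.91e-12) and Dcn (decorin) lowest at a log2 fold change of 0.04 (not called), and their sum was 1650 to 3140 CPM in sham and 13190 to 21188 CPM in the infarct zone. All 11 macrophage and monocyte markers tested rose, from Ly6c2 (0.64) to Cd68 (4.09), and their sum was 451 to 642 CPM in sham and 2517 to 6037 CPM in the infarct zone. By the DESeq2 Wald test 10 of the 11 were called higher, and Ly6c2 was not called (adjusted p = 0.0565). Of 10 mural cell markers 3 rose, with Cnn1 (calponin) at 2.58, and 4 fell, with the pericyte channel subunit Abcc9 at -2.72, but under total count scaling 5 were higher and 2 lower. Of 5 lymphatic markers tested, Pdpn (podoplanin) at 3.34 and Foxc2 at 1.92 rose, whereas Prox1 at -2.81, Lyve1 at -1.30 and Mmrn1 at -1.27 fell, and their summed level overlapped between groups (64.1 to 123 CPM and 63.3 to 94.9 CPM). Prox1 was at -3.56 without infarct zone replicate 1, and under total count scaling 1 of the 5 was called lower. Neither Pdpn nor Prox1 is made by lymphatic cells alone, as fibroblasts can make the former and cardiomyocytes the latter. For none of the 5 lymphatic markers were the cells that held the RNA resolved. Of 12 listed markers of neutrophils, lymphocytes and platelets, 5 passed the filter on low counts and all 5 rose. Among them were Pf4 (2.20) and Csf3r, which had at most 3 counts in a sham library and up to 129 in an infarct library. Lymphocytes were represented by Cd79b alone and platelets by Pf4 alone. Of 2 epicardial markers tested, Msln rose (2.22, adjusted p = 0.00391) and Wt1 had a value of 0.03 (adjusted p = 0.947). Without infarct zone replicate 1 Msln did not pass the filter on low counts, so none was called, and its infarct level of 12.4 ± 13.9 CPM (SD, n = 9) was widely spread. The part of these cell types in the levels of Vegfd, Pgf, Vegfc, Flt4 and Nrp1 was not tested.

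The relay that carries the signal of VEGF receptors inside the cell showed changes in both directions. Of 30 tested genes 9 rose and 15 fell, with a median log2 fold change of -0.27. Among all features tested, 36.3% were called higher and 33.1% lower, with a median of 0.05. The highest were Prkcb (a protein kinase C, 2.55 ± 0.22 SE), Ptpn1 (a phosphatase that acts on KDR, 1.97 ± 0.15) and Src (a kinase downstream of KDR, 1.92 ± 0.24), with adjusted p = 6.63e-10, 6.40e-11 and 1.58e-07. The lowest were Pik3r1 (a regulatory subunit of PI3 kinase, -1.13 ± 0.11), Mapkapk2 (a target of p38 kinase, -1.06 ± 0.13) and Ptprb (the endothelial phosphatase VE-PTP, -1.05 ± 0.14), with adjusted p = 5.85e-09, 1.33e-07 and 4.96e-07. Most of these genes are made by many cell types. Under total count scaling the list had 22 genes higher and 0 lower, and Mapkapk2 and Ptprb were at 0.01 each.

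Genes that VEGF is known to induce, or that mark the leading tip cells of new sprouts, were also mixed. Of 19 tested 7 rose and 3 fell, with a median of 0.05. Over all features 36.3% were called higher and 33.1% lower, also with a median of 0.05. The count of higher genes by itself therefore does not set the list apart. Cxcr4, a chemokine receptor of tip cells and of leukocytes, rose from 5.63 ± 2.72 to 72.8 ± 19.8 CPM (3.69 ± 0.25 SE, adjusted p = 1.93e-11). Plaur, the urokinase receptor, rose by 2.58 ± 0.34 (SE, adjusted p = 4.81e-07). Esm1, an endothelial tip cell gene, rose from a mean of 1.33 CPM (log2 fold change 2.15 ± 0.46 SE, adjusted p = 0.000253), with 7 of 9 infarct libraries above every sham library. The Notch ligand gene Dll4 fell (-0.99 ± 0.25 SE, adjusted p = 0.00151), as did the Notch target Hes1 (-0.52 ± 0.17 SE, adjusted p = 0.0102) and the immediate early gene Nr4a1 (-2.20 ± 0.44 SE, adjusted p = 0.000106). Without infarct zone replicate 1 Esm1 was no longer tested and the list had 6 genes higher and 6 lower. Under total count scaling Dll4 turned to 0.09 and was not called. Hes1 turned to 0.55 under that scaling and was called higher (edgeR adjusted p = 0.00356), so its call depends on the scaling.

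The next list held 19 tested genes for extracellular or cell surface proteins. Their products bind, store, release or process VEGF, or bind neuropilins as semaphorins do. Of these genes 12 rose and 2 fell, with a median of 1.20. For all features the shares were 36.3% higher and 33.1% lower. Thbs1 (thrombospondin 1, an inhibitor of angiogenesis) rose from 20.4 ± 7.75 to 258 ± 115 CPM (3.68 ± 0.29 SE, adjusted p = 1.32e-10). Ccn2 (a matrix protein that binds VEGF-A) reached 900 ± 330 CPM from 84.0 ± 15.4 CPM (3.42 ± 0.22 SE, adjusted p = 1.01e-11), and Ptn (pleiotrophin) reached 233 ± 70.6 CPM from 22.6 ± 6.66 CPM (3.38 ± 0.20 SE, adjusted p = 3.35e-12). Gpc1, a heparan sulfate proteoglycan of the cell surface, fell from 543 ± 51.1 to 91.4 ± 46.6 CPM (-2.57 ± 0.21 SE, adjusted p = 2.54e-10). Sema3c, a semaphorin ligand of neuropilins, fell by 0.60 on the log2 scale (SE 0.23, adjusted p = 0.0265), and Ccbe1, which helps to process VEGF-C, had a value of -0.55 (adjusted p = 0.0732). Without infarct zone replicate 1, 4 genes of the list were lower, and under total count scaling Sema3c and Ccbe1 turned to 0.48 and 0.53. Many of these genes are also products of fibroblasts, whose markers moved in the same direction, and their part in this count was not tested.

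Of 14 tested genes that sense oxygen or regulate Vegfa, 7 fell and 3 rose, with a median of -0.25. All features gave 33.1% lower and 36.3% higher. Ppargc1a, a coactivator that can raise Vegfa in muscle, had a log2 fold change of -3.55 ± 0.40 (SE, adjusted p = 5.05e-08), which was -4.46 without infarct zone replicate 1, and its partner Esrra one of -2.20 ± 0.15 (SE, adjusted p = 3.00e-11). Egln1, the main oxygen-sensing prolyl hydroxylase, went from 284 ± 51.2 to 52.1 ± 28.2 CPM (-2.44 ± 0.22 SE, adjusted p = 1.04e-09). Hif1a, a hypoxia-inducible subunit, rose by 0.68 ± 0.14 (SE, adjusted p = 0.000106), Vhl, which marks it for degradation, by 0.99 ± 0.18 (SE, adjusted p = 3.58e-05), and Zfp36l1, a protein that destabilizes Vegfa mRNA, by 0.77 ± 0.12 (SE, adjusted p = 4.63e-06). Epas1, which encodes another such subunit, went the other way. It fell from 234 ± 23.0 to 70.3 ± 23.3 CPM (-1.73 ± 0.15 SE, edgeR adjusted p = 9.18e-10). The activity of HIF-1 is set largely by protein stability, which was not measured. All 12 cardiomyocyte markers fell as well, with a median of -3.71, and their part in the lower values of this list was not tested. Under total count scaling 8 genes of this list were higher.

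**Figure D5:**
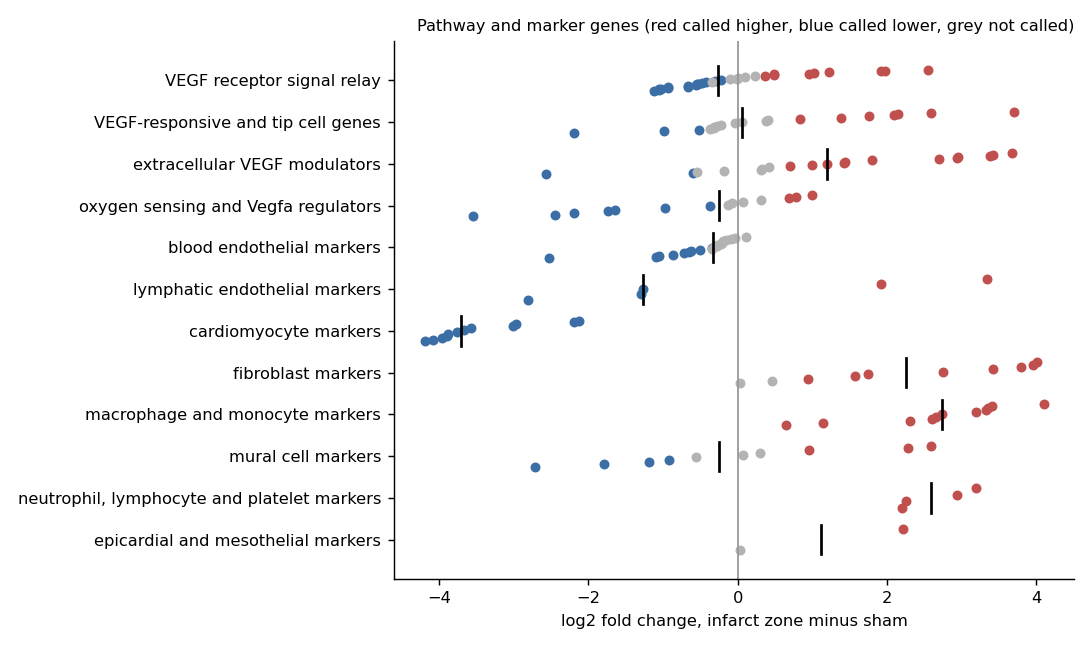
Log2 fold change (x axis, infarct zone minus sham) of each tested gene in 4 pathway lists and 8 marker lists, with red for genes called higher, blue for called lower and grey for not called. Black bars mark the median of the genes drawn, Csf3r is left out because it was at the counting floor in sham, and the cardiomyocyte list lies wholly below -2.

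The genes whose levels went most like each member were sought as a description, by Pearson r over the 17 libraries after subtraction of the group means, among 9328 genes whose mean level reached 10 CPM. These libraries share depth and tissue makeup, so no p is given. Vegfa was nearest to Trabd2b (r = 0.923), Tcaim (0.908) and Insr (0.860), and Vegfb to Pygm, the muscle glycogen phosphorylase (0.985), Crip2 (0.982) and Rbm24, a muscle splicing regulator (0.977). Infarct zone replicate 1, high in muscle genes, is among the 17 libraries, and its part in the r of Vegfb was not tested. Kdr was nearest to Arhgef15 (0.854), an endothelial exchange factor, Mgll (0.854) and Lgals4 (0.845), Flt1 to Rgcc (0.890), Cavin2 (0.883) and Ly6a (0.875), and Flt4 to Podxl (0.903), Npr1 (0.829) and Fgd5 (0.813), of which Podxl and Fgd5 are endothelial. Nrp1 was nearest to Sass6 (0.829), Ebf1 (0.821) and Hypk (0.797), Vegfd to Znhit2 (0.828), Nsa2 (0.784) and Pcnx (0.768), and Pgf to Gm15536 (0.862), Gpr137b-ps (0.780) and Hpgds (0.758). Between members the highest r were those of Vegfa with Kdr (0.724), Kdr with Flt4 (0.688) and Kdr with Flt1 (0.647), and the lowest was that of Vegfc with Pgf (-0.55). Infarct zone replicate 1 was the highest infarct library for Vegfa, Kdr and Flt1, and its part in these r over 17 libraries was not tested. Among the infarct libraries alone, Kdr with Flt1 had a Spearman rho of 0.150. Vegfc had a mean below 10 CPM and was not searched.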

How the data were processed

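The authors trimmed reads with Cutadapt, mapped them to mm10 and counted them per gene with HTSeq, and the deposited values are raw counts after removal of PCR duplicates by molecular identifiers. The submitters' processing notes also name bcl2fastq, Bowtie2 and DESeq2. The annotation release is not given in the sources used here. All 17 columns of the table were used (31647 features, 35 of them merged groups of overlapping genes, which were kept for scaling and testing), and 31521 identifiers matched GENCODE vM21 on GRCm38. Promoters were taken from RefSeq, in which all 9 members matched.

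The counts went into edgeR 4.0.16 (R 4.3.3), with filterByExpr at its minimum of 10 counts, TMM, a two-sided quasi-likelihood F-test without covariates and Benjamini-Hochberg adjustment over 12301 features at a threshold of 0.05. Standard errors came from the F statistic, and CPM on the log2 scale had a prior count of 1. Ratios and relations were tested by exact permutation with SciPy 1.17.1 and NumPy 2.4.6, and plots were made with Matplotlib 3.10.9. Total counts, from 1237675 to 4738307 per library, limit the precision for members under about 10 CPM, and groups were taken from the labels. The intervals given for fold changes rest on the standard errors above, and no interval for counting error alone is given.

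Genes named were the 9 members, the 3 highest and 3 lowest log2 fold changes of each pathway list, the highest and lowest of each marker list, and for each member with a mean of at least 10 CPM the 3 genes most like it within groups. Pecam1, Cdh5, Foxc2, Lyve1, Mmrn1 and Epas1 were named after their values were seen. Members and lists (receptor signal relay, VEGF-responsive and tip cell genes, extracellular modulators, oxygen sensing, and markers of blood and lymphatic endothelium, cardiomyocytes, fibroblasts, macrophages, mural cells, blood cells and epicardium) were chosen with earlier results of these data known. Mmp7, Ccl21a and Itgam had no row of their own. Alternatives were DESeq2 size factors, upper quartile and total count scaling in edgeR, DESeq2 1.42.0, no filter, a minimum mean of 50 counts, thinning to 1237675 counts, removal of mitochondrial genes, the replicate number as a block, a prior count of 5, medians, and leaving out libraries. The procedures were tested on simulated data.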

Additional observations from a re-analysis of the deposited data

Results flagged for a closer look

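Of 48 groups of values checked for a library far from the others, 6 were set apart by a gap that is large for the range of the group, and chance does so in about 1 in 20 groups. In infarct zone replicate 1, Vegfb stood at 7.34 on the log2 CPM scale, with the next library at 5.26, and the mean of the cardiomyocyte markers at 11.3, with the next at 9.03. The same library was lowest for the mean of the macrophage and monocyte markers, at 6.61 with the next at 7.08. Infarct zone replicate 7 was highest for Nrp1, at 7.91 with the next library at 7.22. Sham replicate 6 was highest for the log2 ratio of Vegfc to Vegfa, at -3.79 with the next at -4.44, and sham replicate 3 for the mean of the macrophage and monocyte markers, at 4.91 with the next at 4.62.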

How the results depend on the processing

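Of 715 values recomputed under an alternative, 646 kept their direction and their side of the threshold, or, for counts and shares, stayed close to the reported value. Vegfa, Vegfb, Kdr and Flt1 did so in 26 of 26 alternatives each and Vegfd and Pgf in 25 of 25. The ranges were -3.01 to -1.70 for Vegfa, -3.45 to -1.83 for Vegfb, -1.93 to -0.67 for Kdr, -2.08 to -0.86 for Flt1, 1.96 to 3.18 for Vegfd and 0.92 to 2.12 for Pgf.

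Total counts alone moved most values, by construction, since the median gene shifted upward by 1.09. Log2 fold changes became 1.21 for Vegfc, 1.01 for Flt4, 0.98 for Nrp1, 0.011 for Mapkapk2, 0.013 for Ptprb, 0.091 for Dll4, 0.55 for Hes1, 0.48 for Sema3c and 0.53 for Ccbe1. Hes1 was thereby called higher in place of lower. Members called higher became 5 in place of 2, and all genes called were 9203 higher and 1524 lower. Genes called higher and lower were 22 and 0 for the signal relay, 17 and 1 for the VEGF-responsive list, 15 and 1 for blood endothelial markers and 5 and 2 for mural markers. There was 1 lower gene each among extracellular modulators and lymphatic markers, and there were 8 higher genes in oxygen sensing and 2 among epicardial markers. Correlations in the infarct zone fell to 0.686 for endothelial markers with Kdr (adjusted exact p = 0.139) and 0.582 with Flt1 (adjusted exact p = 0.230), and in sham those of cardiomyocyte markers turned to 0.457 with Vegfa and -0.25 with Vegfb.

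A minimum mean of 50 counts left 2747 genes called higher and 2492 lower from 6734 tested, and 0 members higher because Vegfd and Pgf were no longer tested. Flt4 changed sign without a call under upper quartile scaling (0.070), without a filter (0.021) and with the replicate block (0.074), and ranged from -0.18 to 0.11 when single libraries were left out. DESeq2 gave -0.012 for Wt1, also not called. Ly6c2 lost its call under the DESeq2 Wald test (0.64, adjusted p = 0.0565). The ratio of Nrp1 to endothelial markers lost its call after thinning (0.34) and with medians (0.39). With a prior count of 5 the relation of macrophage markers with Vegfc in the infarct zone passed (r = -0.73, adjusted exact p = 0.0495).

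Without the 2 farthest libraries none of the relations passed after adjustment. In the infarct zone r was 0.735 for cardiomyocyte markers with Vegfb, -0.047 with Vegfa, 0.530 for endothelial markers with Kdr, 0.603 with Flt1, -0.28 for Kdr with Flt1 and -0.22 for macrophage markers with Pgf. In sham it was 0.842 for endothelial markers with Kdr, 0.699 with Flt1, 0.697 with Flt4 and -0.21 for cardiomyocyte markers with Vegfb. Without infarct zone replicate 1, r in the infarct zone was 0.694 for cardiomyocyte markers with Vegfb, 0.779 and 0.545 for endothelial markers with Kdr and Flt1, and -0.049 for Kdr with Flt1, and none of these passed. Without that library the genes called lower were 6 in the VEGF-responsive list and 4 among the extracellular modulators, 0 epicardial markers were called higher because Msln was no longer tested, and Dcn was at -0.051. The cause of the other changes was not tested.

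The replicate numbers of the 2 groups belong to different mice, and deviations of libraries with the same number correlated at -0.22 to 0.13, so the numbers share only a name. With the replicate block, in which infarct zone replicate 9 has no partner, 4221 genes were called higher and 3858 lower, and it changed no call of a member. Depth limits the members near 10 CPM, where 3 counts in a shallow library are a large share of the level.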
